A study of Rattus norvegicus with 18 samples.

Results

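The monoamine and peptide receptors on a rat neurobiology array were followed in cortical type-I astrocytes during contact with beta-amyloid. The receptors were taken by gene name, as all probe sets other than the array's own controls whose single annotated symbol begins with 1 of 16 prefixes (Adra, Adrb, Drd, Htr, Hrh, Tacr, Opr, Sstr, Galr, Ednr, Avpr, Agtr, Bdkr, Ntsr, P2ry and Adora). This gave 69 probe sets for 48 genes, out of 1263 probe sets in all, which name 720 genes. The naming rule uses no measured value. The 18 samples were 6 controls, grown on laminin and nitrocellulose with no peptide, and 12 samples in contact with residues 25 to 35 of the beta-amyloid peptide in 4 groups of 3, exposed for 12 hours, 1 day, 3 days or 5 days. The cells carried no stated transgene, the labels give no animal age and no culture time for the controls, and whether the samples were separate cultures is not stated, so the p-values measure only the spread between these samples. The source label of controls 1 and 2 is cerebral cortex, whereas that of all other samples is cortical type-I astrocytes.

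Most of these genes encode receptors with 7 membrane-spanning helices that act on heterotrimeric G proteins. Gs-coupled members such as the beta-adrenergic and D1-type dopamine receptors raise cyclic AMP, Gi-coupled members such as the opioid, somatostatin and alpha-2 adrenergic receptors lower it, and Gq-coupled members such as the alpha-1 adrenergic, tachykinin, angiotensin and bradykinin receptors act through phospholipase C and calcium. Astrocytes are known to respond to noradrenaline, ATP, adenosine and several peptides through such receptors. Htr3a, which the naming rule also takes in, encodes a serotonin-gated ion channel and is not a G protein-coupled receptor.

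Each deposited value is the signal of 1 probe set on 1 array, a linear intensity that was already scaled between arrays. The median signal of an array was 101.1 to 131, and 6.02 to 12.0% of its values were at or below a floor of 10.9, to which lower values were set before log2 was taken. Of 11 astrocyte markers, 8 were measured, none of them at the floor on every array. Their summed signal was 24072 to 38021 on the controls, 38558 to 39897 at 12 hours and 33638 to 36274 at 1 day. At 3 days it was 25857 to 33325 and at 5 days 41665 to 42340. Of 11 neuronal markers, 8 were measured, none at the floor on every array, and their sum was 1143 to 1213 on the 12-hour arrays, 1272 to 2946 on the controls and 1366 to 2116 on the other arrays. The arrays fell into 2 clusters by correlation of all values, and the same split was found without the receptors. Cluster 1 held controls 1 and 2, all 12-hour arrays, 1-day array 3 and 3-day array 3. Cluster 2 held the other 11 arrays, among them all 5-day arrays. Igf2, the only measured marker of 6 for fibroblasts and meningeal cells, was brighter in cluster 1, at 3283 to 8744, than in cluster 2, at 211 to 645. Time and cluster cannot be told apart from the 5-day and 12-hour arrays alone. Fits with cluster as a block, which draw on the other groups, are given beside the receptor calls, and otherwise the part of the clusters in the results was not tested. In cell populations such as these, fewer cells of a type and less RNA per cell cannot be told apart.

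The promoters of 3 receptors that passed a test below are shown, because Adrb1 and Adra1b, which both receive noradrenaline, differed in opposite directions and Tacr3 was the only receptor called at 1 day. Each is the 250 bases before the gene's RefSeq start in the rat assembly GRCr8, written 5′ to 3′ on the gene's strand. Adrb1 is from chr1:265776853-265777102 on the plus strand, Adra1b from chr10:28814348-28814597 on the minus strand and Tacr3 from chr2:225940247-225940496 on the plus strand. Capitals mark the cyclic AMP response element half-site, searched as TGACG and, for the opposite strand, CGTCA.
Adrb1: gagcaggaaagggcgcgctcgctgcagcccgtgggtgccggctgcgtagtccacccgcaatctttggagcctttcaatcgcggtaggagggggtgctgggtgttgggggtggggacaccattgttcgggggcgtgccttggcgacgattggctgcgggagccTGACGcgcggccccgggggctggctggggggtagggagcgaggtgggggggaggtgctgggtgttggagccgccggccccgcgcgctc
Adra1b: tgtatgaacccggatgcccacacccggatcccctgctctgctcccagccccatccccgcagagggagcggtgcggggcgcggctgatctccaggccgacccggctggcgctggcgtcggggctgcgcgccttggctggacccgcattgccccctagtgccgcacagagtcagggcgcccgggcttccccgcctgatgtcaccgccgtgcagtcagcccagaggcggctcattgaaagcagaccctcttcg
Tacr3: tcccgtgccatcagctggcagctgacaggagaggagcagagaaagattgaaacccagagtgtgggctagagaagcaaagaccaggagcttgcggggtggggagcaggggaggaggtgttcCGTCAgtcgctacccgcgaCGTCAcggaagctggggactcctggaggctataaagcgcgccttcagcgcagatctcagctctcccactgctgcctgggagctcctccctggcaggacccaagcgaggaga
The Adrb1 window held 1 half-site, beginning 88 bases before the start, and the Tacr3 window held 2, both on the opposite strand, beginning 130 and 111 bases before the start. The Adra1b window held none, nor did those of Drd1 and Galr2, the other 2 receptors called below. Among 33469 rat promoters of the same length, 18.2% held a half-site, and among the 37 receptor genes with a promoter in the table, 8 did (21.6%). The GC box GGGCGG, searched on both strands, was in none of the 5 windows, in 30.5% of all promoters and in 13 of the 37 receptor promoters (35.1%). A match is a string of letters and was not shown to be a bound site.

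Of the 69 receptor probe sets, 48 probe sets for 39 genes had a signal above 43.05 on at least 3 of the 18 arrays and were tested. The other 21 did not reach it. They were the only probe sets of Adra2c, Bdkrb2, Drd2, Galr1, Galr3, Htr1f, Oprd1, Sstr2 and Tacr1, and some of the probe sets of Avpr2, Drd1, Drd3, Htr2c, Htr3a, Htr4, Htr7, Oprk1 and Oprm1. The tested probe sets came from 12 families. Receptors for histamine, endothelin and neurotensin were not analysed here. Levels of different probe sets are not compared with one another, since their brightness depends on the probes.

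Few receptors passed the limma test against control, which was adjusted over all 1039 probe sets tested. At 12 hours 1 of the 48 receptor probe sets was called, the dopamine receptor Drd1, which was lower. Among all probe sets the share called at 12 hours was 1.64%, and the share called lower 0.866%. At 1 day 1 was called, the tachykinin receptor Tacr3, also lower, against 0.289% of all and 0.192% called lower. At 3 days, at 5 days and for the mean of the 4 times limma called no receptor, and the share of all probe sets called was 0% in each. Without adjustment, p was under 0.05 for 2, 4 and 3 receptor probe sets in these 3 comparisons, where the shares of all probe sets were 4.52%, 9.05% and 7.51%, and for 13 at 12 hours (27.1%, against 29.4% of all probe sets). Between 5 days and 12 hours 4 receptor probe sets were called, against 16.2% of all. Drd1 and Adrb1 were higher at 5 days (8.85% of all probe sets were), and Adra1b and Galr2 were lower (7.31% of all). The share of receptors called was 8.33%, below the share among all probe sets, and this difference was not tested. A limma F-test over the 5 groups called Drd1 alone among the receptors, against 1.64% of all probe sets.

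**Figure D1:**
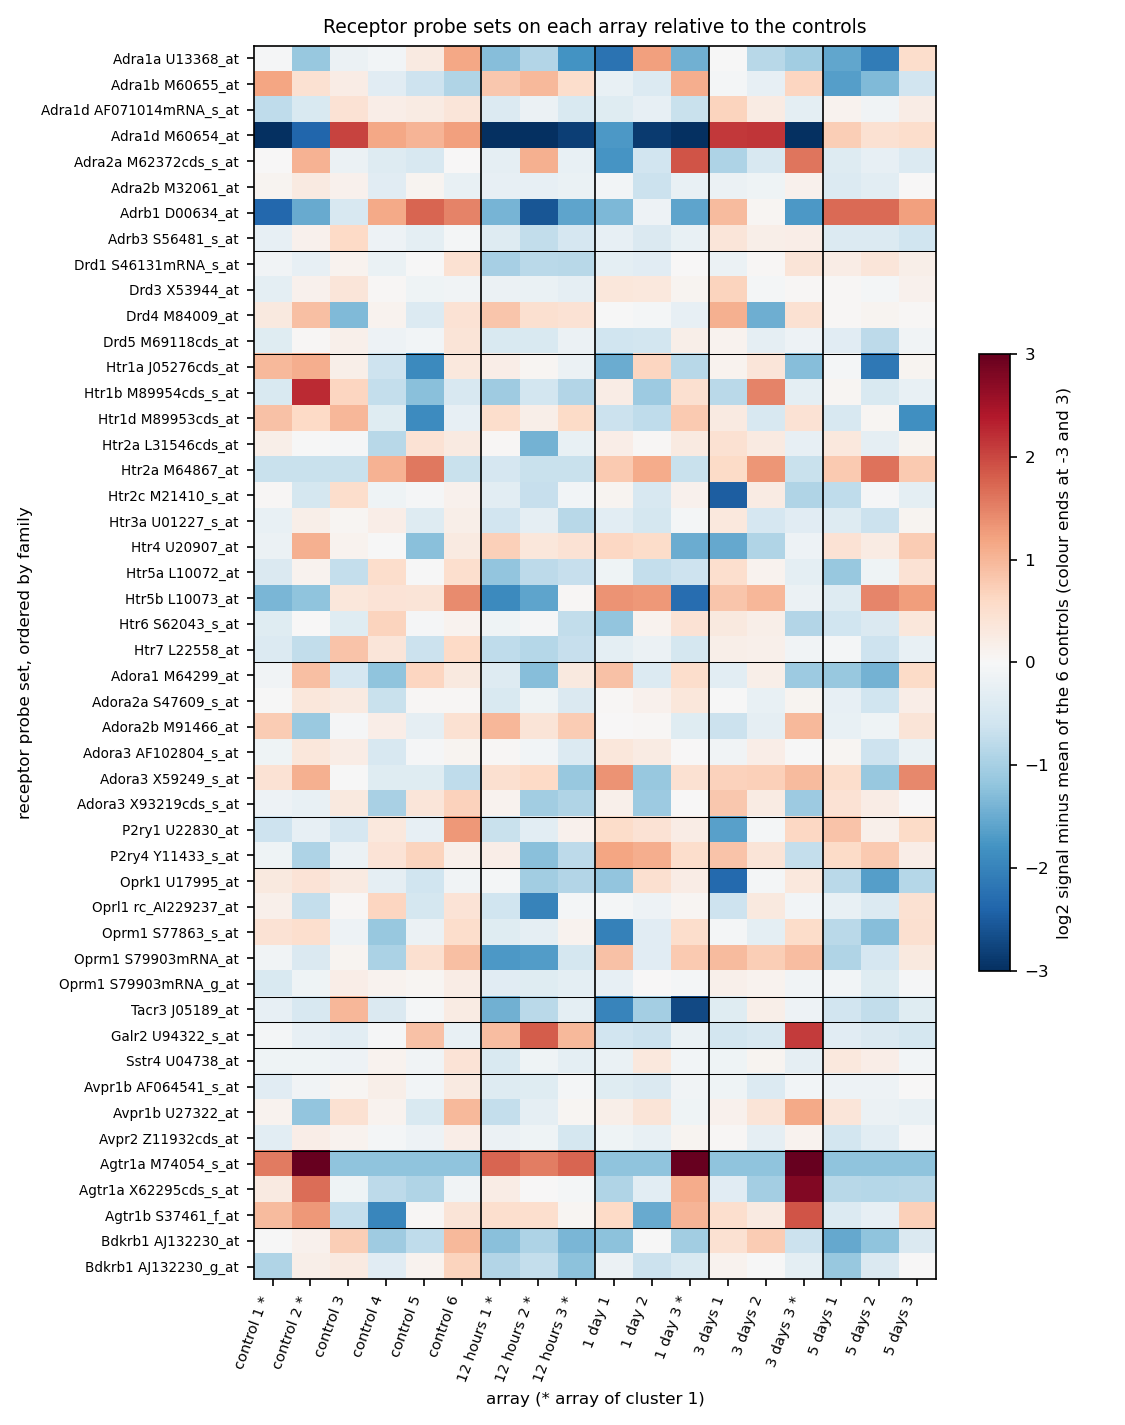
Colour gives the log2 signal minus the control mean of the same probe set, with the scale ended at -3 and 3, for the 48 tested receptor probe sets (rows, by family) on the 18 arrays (columns, by group; an asterisk marks cluster 1). Agtr1a M74054_s_at and Adra1d M60654_at have the widest swings. High values of the first carry an asterisk throughout, and the second is low on all asterisked arrays and also on 1-day arrays 1 and 2.

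As a group the receptor probe sets lay slightly below control at 12 hours. The median log2 difference of the 48 was -0.34, and 37 of them (77.1%) were below 0. Over all 1039 probe sets the median was -0.19 and 60.2% were below 0. Quantile normalization brought the median of all probe sets to -0.02 and that of the receptors to -0.15, with 32 of 48 below 0. At 1 day, 3 days and 5 days the receptor medians were -0.12, 0.06 and -0.24, beside -0.06, 0.02 and -0.14 for all probe sets. The plot of differences by family and time shows that the 5 opioid, 2 bradykinin, 2 P2Y, 3 vasopressin, 1 tachykinin and 1 somatostatin probe sets were all below control at 12 hours, and the 3 angiotensin and 1 galanin probe sets above it. These counts describe signs and include probe sets that did not pass the test.

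**Figure D2:**
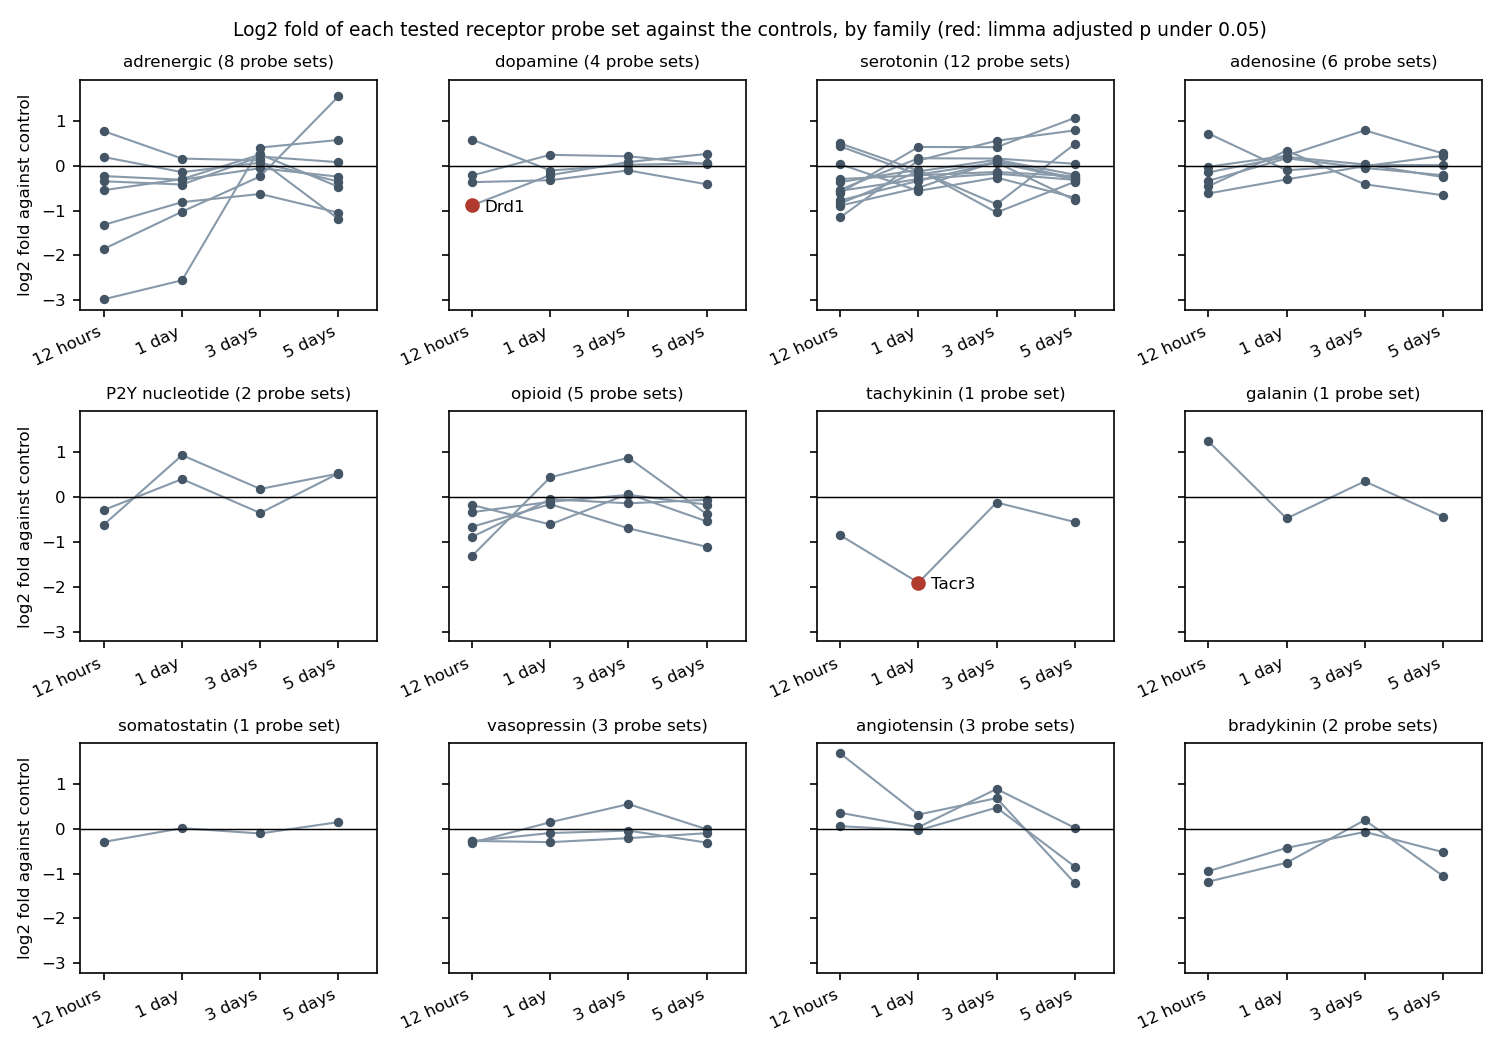
The log2 difference from control at 12 hours, 1 day, 3 days and 5 days is shown for each tested receptor probe set, in 1 panel per family, with red points where the limma adjusted p was under 0.05. Only Drd1 at 12 hours and Tacr3 at 1 day are red.

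Among the dopamine receptors, Drd1 fell at 12 hours. Drd1 encodes the main Gs-coupled dopamine receptor. Probe set S46131mRNA_s_at had signals of 66.2, 75.6 and 107.8 (lowest, median and highest) on the 6 controls and of 39.4, 45.0 and 44.0 on the 3 arrays at 12 hours. All 12-hour arrays lay below every control, and every array of the later times lay above them. The 1-day signals were 64.4, 62.4 and 79.0, the 3-day signals 69.3, 81.4 and 103.2 and the 5-day signals 92.4, 101.9 and 89.8. At the later times the arrays overlapped the controls, with 2 of the 3 1-day arrays below the lowest control. The mean signal was 80.0 ± 15.2 (SD, n = 6) in controls, 42.8 ± 2.99 (SD, n = 3) at 12 hours and 94.7 ± 6.37 (SD, n = 3) at 5 days. The log2 difference from control at 12 hours was -0.88 ± 0.18 (SE; limma adjusted p = 0.0407). From 12 hours to 5 days it rose by 1.15 ± 0.21 (limma adjusted p = 0.0108), a 2.21-fold difference of geometric means. With cluster as a block this difference was 1.21 and not called (limma adjusted p = 0.099), and without 12-hour array 2 its limma adjusted p was 0.051. The clusters overlapped, at 39.4 to 103.2 in the first and 62.4 to 107.8 in the second.

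The call of Drd1 at 12 hours was near its threshold. It held without control 1, control 2, 1-day array 3, 3-day array 1 or 3-day array 3, and was lost without any of the other 13 arrays, with log2 differences of -0.93 to -0.79 and limma adjusted p of 0.00914 to 0.163. Within cluster 1, where 2 controls meet the 3 exposed arrays, the difference was -0.71 (limma adjusted p = 0.26). With cluster as a block it was -0.92 (limma adjusted p = 0.0609). After quantile normalization it was -0.57 (limma adjusted p = 0.111). Summed neuronal markers were also lower on the 12-hour arrays than on any control, and summed astrocyte markers were higher, both without overlap. The part of either in the Drd1 difference was not tested. The other 2 Drd1 probe sets give no check, since M35077_s_at stayed between 2.7 and 31.8 and S46131mRNA_r_at between 3.5 and 17.8. No other dopamine receptor was called. Drd3, a Gi-coupled receptor, had control signals of 956 to 1495 on X53944_at and a log2 difference of 0.24 at 1 day (limma adjusted p = 0.69). Drd4 and Drd5 differed from control by at most 0.58 in size on the log2 scale at any time. Drd2 was dim on all arrays, between 15.2 and 38.7.

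**Figure D3:**
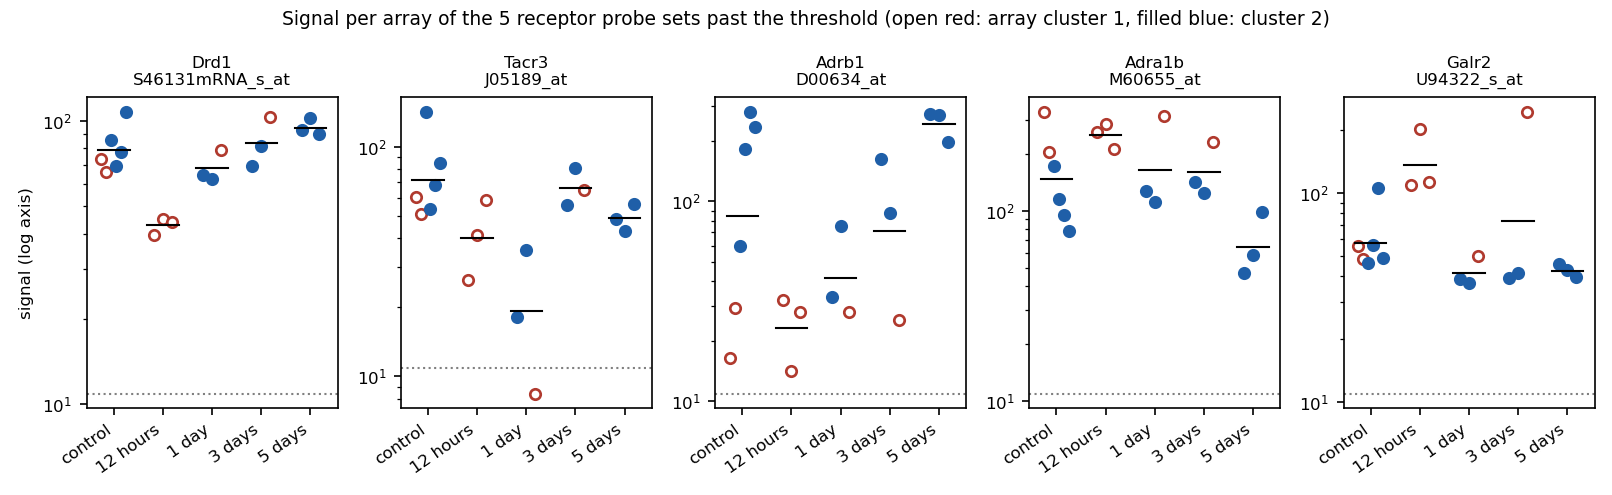
Signal on a log axis for the 5 called receptor probe sets, with 1 point per array by group, bars at geometric means with signals below the floor set to it, a dotted line at the floor of 10.9, open red points for cluster 1 and filled blue points for cluster 2. The Drd1 points at 12 hours lie below all others, the bar of Tacr3 is lowest at 1 day, and the red and blue points of Adrb1 and Adra1b separate completely.

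Tacr3 fell at 1 day. It encodes the neurokinin 3 receptor, the Gq-coupled receptor preferred by neurokinin B. The controls had signals of 51.0, 64.3 and 142.0 (lowest, median and highest) on J05189_at, and the 1-day arrays had 18.1, 35.6 and 8.4, of which the last is below the floor. All 1-day arrays lay below all controls. At 12 hours the signals were 26.3, 41.2 and 58.3, at 3 days 55.6, 80.4 and 64.5 and at 5 days 48.3, 43.1 and 56.1. All 3-day arrays lay within the control range, and at 12 hours and 5 days 1 of the 3 did, with the others below it. The log2 difference was -1.90 ± 0.37 (SE) at 1 day (limma adjusted p = 0.0407), or 3.74-fold between geometric means, and -0.85 ± 0.37 at 12 hours (limma adjusted p = 0.148). Within cluster 2, with 4 controls and 2 exposed arrays, the 1-day difference was -1.68 (limma adjusted p = 0.025). In that fit a larger share of all probe sets was called than the 0.289% of the main fit. Within cluster 1, with 2 controls and 1 exposed array, the difference was -2.35. The call was lost with a floor at the 20th percentile (-1.41, limma adjusted p = 0.112), with log2(signal + 32) (-1.03, limma adjusted p = 0.106) and with trend and robust options (limma adjusted p = 0.0669). The call held without control 1, 2 or 4, 12-hour array 1 or 3, or 1-day array 2, and was lost without any of the other 12 arrays, with differences of -2.35 to -1.50 and limma adjusted p of 0.0203 to 0.284. The summed neuronal markers on the 1-day arrays, 1735 to 1867, lay inside the control range. Tacr1, the receptor for substance P, did not pass the filter, and its signals were 10.7 to 77.6.

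Of the adrenergic receptors, Adrb1 was higher and Adra1b was lower at 5 days than at 12 hours. Adrb1 encodes the Gs-coupled beta-1 adrenergic receptor. Its signals on D00634_at were 16.4, 122 and 281.9 (lowest, median and highest) on the controls, 32.1, 14.1 and 27.9 at 12 hours, 33.3, 75.6 and 28.1 at 1 day, 163.0, 87.3 and 25.5 at 3 days and 274.2, 272.0 and 197.7 at 5 days. The 5-day arrays were high and the 12-hour arrays low, and the controls spanned nearly the whole of both. Controls 1 and 2 had 16.4 and 29.4, and the other 4 controls 60.0 to 281.9. The log2 difference between 5 days and 12 hours was 3.40 ± 0.95 (SE; limma adjusted p = 0.0399), a 10.5-fold difference. Against control the differences were -1.85 at 12 hours (limma adjusted p = 0.148) and 1.54 at 5 days (limma adjusted p = 0.52). Without controls 1 and 2 the 12-hour difference became -2.82 (limma adjusted p = 0.0055), but the 12-hour arrays are then all of cluster 1 and the controls all of cluster 2, and 30.9% of all probe sets were called.

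Adra1b encodes a Gq-coupled alpha-1 adrenergic receptor, and its order across groups was the opposite. On M60655_at the controls had signals of 78.6, 144 and 332.9 (lowest, median and highest), the 12-hour arrays 259.4, 287.5 and 211.6 and the 5-day arrays 47.0, 58.5 and 98.5. The 1-day signals were 126.5, 111.5 and 315.0 and the 3-day signals 142.4, 124.3 and 231.1. The 12-hour arrays were above the 5-day arrays without overlap, and the controls reached into both. The log2 difference between 5 days and 12 hours was -1.95 ± 0.50 (SE; limma adjusted p = 0.0296), or 3.88-fold. Against control it was 0.77 at 12 hours (limma adjusted p = 0.239) and -1.19 at 5 days (limma adjusted p = 0.484).

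In both genes the clusters of arrays did not overlap at all. Adrb1 signals were 14.1 to 32.1 in cluster 1 and 33.3 to 281.9 in cluster 2, and Adra1b signals 203.7 to 332.9 in cluster 1 and 47.0 to 172.8 in cluster 2. Of the 48 receptor probe sets, 4 separated the clusters in this way, the others being both Agtr1a probe sets, against 14.7% of all probe sets. With cluster as a block, the 5-day to 12-hour difference was 1.18 for Adrb1 (limma adjusted p = 0.482) and -0.79 for Adra1b (limma adjusted p = 0.368). Both calls were also lost without any one of the 12-hour or 5-day arrays, and that of Adrb1 without 1-day array 1, with adjusted p up to 0.11 for Adrb1 and 0.0923 for Adra1b in limma.

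Adra1d, another Gq-coupled alpha-1 receptor, showed the widest range among the adrenergic receptors without a call. On M60654_at the controls had signals of 9.2, 17.4, 371.6, 203.0, 183.0 and 212.1 (controls 1 to 6), and the 12-hour arrays 5.5, 8.9 and 12.9. The 1-day arrays had 27.3, 12.4 and 6.5, the 3-day arrays 395.2, 402.0 and 9.0 and the 5-day arrays 151.8, 124.5 and 129.9. All 12-hour and 1-day arrays, controls 1 and 2 and 3-day array 3 were low, and the other arrays were above 120 throughout. The log2 difference was -2.98 ± 1.17 (SE) at 12 hours (limma adjusted p = 0.125) and -2.55 ± 1.17 at 1 day (limma adjusted p = 0.413). Without controls 1 and 2, these became -4.33 (limma adjusted p = 0.00447) and -3.91 (limma adjusted p = 0.0297). The first sets cluster 1 arrays against cluster 2 controls, with 30.9% of all probe sets called, and this probe set was low on every cluster 1 array. In the second, 5.58% of all probe sets were called. Within cluster 2 the 1-day difference was -3.66 (limma adjusted p = 0.000222), so 1-day arrays 1 and 2 were low for this probe set beside controls of their own cluster. In that fit the share of all probe sets called was larger than this 5.58%. The other Adra1d probe set, AF071014mRNA_s_at, had the same signs at all 4 times but smaller differences, of -0.35, -0.42, 0.20 and 0.08.

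The remaining adrenergic receptors were not called. Adrb3, the Gs-coupled beta-3 receptor known from fat tissue, had control signals of 229.9, 261 and 424.8 (lowest, median and highest) on S56481_s_at, 12-hour signals of 212.7, 168.5 and 197.5 and 5-day signals of 211.4, 210.3 and 186.4. Both times lay below all controls. The differences were nevertheless small, -0.54 ± 0.19 at 12 hours (limma adjusted p = 0.11) and -0.47 ± 0.19 at 5 days (limma adjusted p = 0.484). The 3-day arrays, at 362.9, 316.2 and 321.8, lay within the control range and above the arrays of the other times. Adra1a had differences of -1.32 to -0.63 over the 4 times, with limma adjusted p of 0.208 to 0.999. Adra2a and Adra2b, Gi-coupled alpha-2 receptors, differed from control by at most 0.35 in size on the log2 scale. Adra2c passed 43.05 on 2 arrays only.

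Galr2 was lower at 5 days than at 12 hours. It encodes a receptor for galanin. The controls had signals of 46.0, 52.3 and 105.6 (lowest, median and highest) on U94322_s_at, the 12-hour arrays 110.0, 202.9 and 112.7 and the 5-day arrays 45.6, 42.6 and 39.6. The 12-hour arrays were above all controls and the 5-day arrays below all of them, the latter by a narrow margin. The 1-day arrays, at 38.6, 36.9 and 49.9, were low. The 3-day arrays had 39.0 and 41.2, with array 3 at 246.6. The log2 difference was -1.68 ± 0.54 (SE) between 5 days and 12 hours (limma adjusted p = 0.0465), or 3.20-fold, and 1.24 ± 0.46 at 12 hours against control (limma adjusted p = 0.114).

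For Galr2 the call between 5 days and 12 hours held without control 1, 2, 4 or 5, 1-day array 3 or any 3-day array, and was lost without any of the other 10 arrays, with limma adjusted p of 0.0102 to 0.159. With cluster as a block the difference was -1.03 (limma adjusted p = 0.468). Leaving out 3-day array 3 also brought the 12-hour difference under the threshold (limma adjusted p = 0.046). Gal, the precursor of galanin, was lower at 5 days than at 12 hours as well, with a log2 difference of -3.83 (limma adjusted p = 0.0453). Against control, Gal and Galr2 had the same sign at 12 hours and 5 days. Their signs were opposite at 1 day (2.56 for Gal, -0.47 for Galr2) and 3 days (-1.72 and 0.35), and none of these was called. Galr1 and Galr3 did not pass the filter, with signals of 4.4 to 30.8 and 10.6 to 30.9.

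Among the angiotensin receptors, both Agtr1a probe sets separated the array clusters, and none of the 3 probe sets was called. Agtr1a encodes the Gq-coupled type 1 receptor of angiotensin II. Agtr1a M74054_s_at had signals of 73.8 and 246.9 on controls 1 and 2 and of 4.2, 2.4, 2.0 and 7.8 on controls 3 to 6. The 12-hour arrays had 85.1, 72.7 and 84.8, the 1-day arrays 3.5, 6.3 and 259.9 and the 3-day arrays 4.7, 4.7 and 557.1. All 3 5-day arrays, at 2.7, 3.0 and 3.2, were below the floor, as were all others of cluster 2. Signals of cluster 1 were 72.7 to 557.1, and by geometric mean cluster 1 was at least 13.4-fold higher than cluster 2, whose arrays were set to the floor. Against control the 12-hour log2 difference was 1.68 ± 1.33 (SE; limma adjusted p = 0.394), with the control mean itself made of 2 high and 4 floored arrays.

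The second Agtr1a probe set, X62295cds_s_at, read from 203.1 up to 1459 on cluster 1 arrays and from 103.9 up to 195.8 on cluster 2 arrays, with the highest signal again on 3-day array 3. Agtr1b S37461_f_at gave 85.6 to 303.6 in cluster 1 and 21.2 to 134.8 in cluster 2, which overlapped, and its 3-day log2 difference was 0.89 (limma adjusted p = 0.999). Agtr1a and Agtr1b are near-identical paralogs, and the suffix of this probe set marks one that may detect a gene family, so the signals of these 2 genes cannot be assigned with certainty. Adra1d M60654_at ran the other way, with 5.5 to 17.4 in cluster 1 and 12.4 to 402.0 in cluster 2. Igf2 was high on the same 7 arrays as Agtr1a, and its part, or that of the cells it marks, was not tested.

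**Figure D4:**
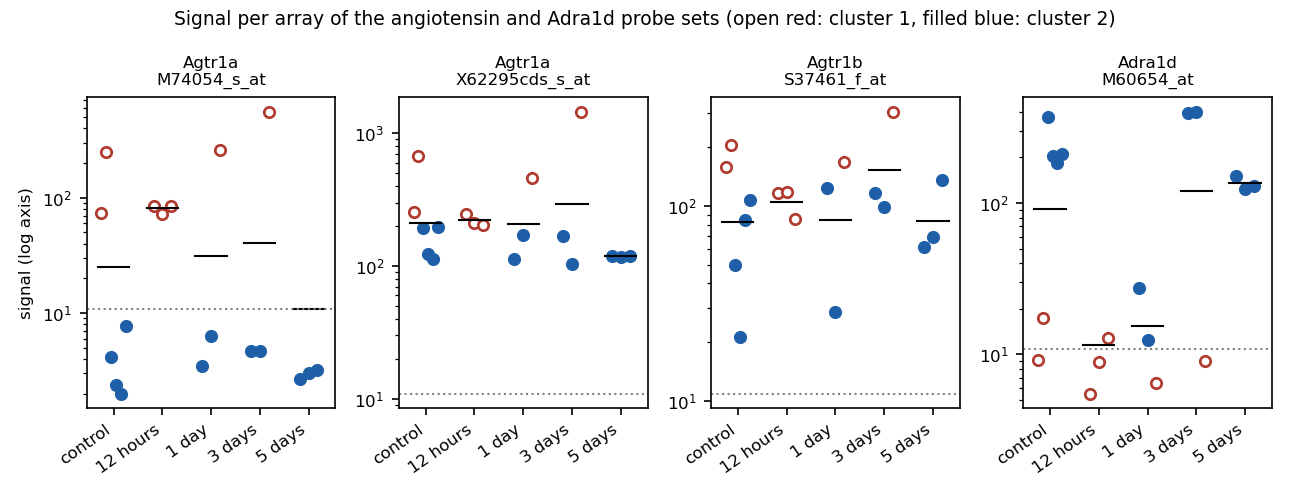
Signal on a log axis by group for both Agtr1a probe sets, Agtr1b and Adra1d M60654_at, with 1 point per array, open red for cluster 1 and filled blue for cluster 2. In every group that holds both colours, red points are above blue for Agtr1a and below blue for Adra1d, and all blue points of Agtr1a M74054_s_at lie under the dotted floor.

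Serotonin receptors formed the largest family, with 19 probe sets for 12 genes and 12 probe sets tested, and none was called by limma in any comparison, with an unadjusted p under 0.05 for 3 at 12 hours, 1 at 3 days and 1 between 5 days and 12 hours, against 29.4%, 4.52% and 31.8% of all probe sets. Their median log2 difference was -0.55 at 12 hours, -0.16 at 1 day, 0.07 at 3 days and -0.26 at 5 days. Htr5a, a receptor that lowers cyclic AMP, had the smallest F-test p of the family. Its control signals on L10072_at were 61.4, 103 and 144.0 (lowest, median and highest), and its 12-hour signals were 43.8, 58.1 and 61.9. The 12-hour arrays lay at or under the lowest control, with 1 array just above it, and the log2 difference was -0.89 ± 0.34 (SE; limma adjusted p = 0.118). Htr2a, the Gq-coupled 5-HT2A receptor, had M64867_at signals at or below the floor on 8 arrays and 29.5, 53.6 and 29.4 at 5 days. Controls 4 and 5, at 35.4 and 51.7, were the only controls above the floor for it, and the 5-day difference of 1.06 had a limma adjusted p of 0.52. Its other probe set, L31546cds_at, differed by 0.04 at 5 days.

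The lowest serotonin receptor differences at 3 days were those of Htr2c M21410_s_at, at -1.04 (limma adjusted p = 0.889), and Htr4 U20907_at, at -0.86 (limma adjusted p = 0.999). Htr2c encodes a Gq-coupled and Htr4 a Gs-coupled receptor. The Htr2c signals at 3 days were 12.2, 80.4 and 36.4, with controls of 46.8 to 97.5. Array 2 lay within the control range and the other 2 below it. Htr4 had 18.6, 28.9 and 48.9 beside controls of 22.7 to 112.4. Htr5b had the widest spread between 12 hours and 5 days in the family, with signals of 16.1, 20.1 and 61.6 against 46.3, 167.7 and 144.7 on L10073_at, and the difference of 1.94 was not called (limma adjusted p = 0.162). The ion channel gene Htr3a differed by -0.56 to -0.18 on U01227_s_at, and its other 2 probe sets did not pass the filter.

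Opioid receptors are Gi-coupled, and all 5 tested probe sets were below control at 12 hours and at 5 days. None was called by limma, and an unadjusted p was under 0.05 for 2 at 12 hours, 1 at 3 days and 1 at 5 days, against 29.4%, 4.52% and 9.05% of all probe sets. Oprm1, the mu receptor, had control signals of 34.3, 66.3 and 124.8 (lowest, median and highest) on S79903mRNA_at, 12-hour signals of 20.2, 20.9 and 45.7 and 3-day signals of 129.2, 111.1 and 126.8. At 3 days 2 of the 3 arrays stood above the highest control, and 2 of the 3 12-hour arrays lay below its lower end. The log2 differences were -1.31 ± 0.41 at 12 hours (limma adjusted p = 0.102) and 0.88 ± 0.41 at 3 days (limma adjusted p = 0.96), with an F-test adjusted p of 0.0907. The other 2 tested Oprm1 probe sets differed by -0.17 and -0.33 at 12 hours and by 0.08 and 0.05 at 3 days. Oprk1, the kappa receptor, had 5-day signals of 31.3, 17.3 and 30.2 on U17995_at, all below the lowest control of 36.2. Its difference of -1.10 at 5 days had a limma adjusted p of 0.52, and that of -0.69 at 3 days came with 1 array at 9.7. Oprl1, the nociceptin receptor, differed by -0.88 at 12 hours (limma adjusted p = 0.148). Oprd1, the delta receptor, was between 13.4 and 35.3 on all arrays.

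Receptors whose arrays did not overlap the controls were few. At 12 hours they were Drd1 and Adrb3 (lower) and Galr2 (higher), 3 of 48 probe sets against 15% of all. At 1 day Tacr3 was the only one, against 1.73%, and at 3 days there was none, against 1.54%. At 5 days Adrb3, Galr2 and Oprk1 were lower, 3 of 48 against 5.29%. Between 5 days and 12 hours 16 of 48 did not overlap, against 53.3% of all.

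Bdkrb1, the bradykinin B1 receptor, had both of its probe sets below control at 12 hours without a call. On AJ132230_at the controls had signals of 33.4, 72.9 and 136.4 (lowest, median and highest), the 12-hour arrays 29.5, 36.9 and 27.1 and the 5-day arrays 24.3, 30.5 and 52.0. On AJ132230_g_at, the controls had 149.6 to 443.0 and the 12-hour arrays 150.6, 168.5 and 118.5. Below the lowest control were 2 of the 3 arrays at 12 hours and 2 of the 3 at 5 days on the first probe set, and 1 of the 3 at 12 hours on the second. The log2 differences at 12 hours were -1.18 ± 0.45 and -0.95 ± 0.31 (limma adjusted p = 0.118 and 0.105). Without controls 1 and 2 the second became -1.12 (limma adjusted p = 0.0113), with time and cluster again aligned. Over the mean of the 4 times these were -0.70 and -0.49 (limma adjusted p = 0.621 for both). Bdkrb2, the B2 receptor, was not tested and is described after its values were seen. On X80187mRNA_s_at it had 63.2 and 59.4 on 1-day arrays 1 and 2 and 2.8 to 11.0 on the other 16 arrays, including 3.6 on 1-day array 3.

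Of the nucleotide receptors, P2ry4 had the smallest p among receptors above control at 1 day. It encodes a Gq-coupled receptor that responds to uridine triphosphate. Its signals on Y11433_s_at were 87.6, 170 and 265.1 (lowest, median and highest) on the controls and 381.9, 354.0 and 242.0 at 1 day. At 12 hours they were 193.0, 70.3 and 96.8 and at 5 days 250.8, 288.3 and 193.0. The 1-day arrays were high, with 1 of the 3 inside the control range. The log2 difference at 1 day was 0.94 ± 0.39 (SE; limma adjusted p = 0.386), and between 5 days and 12 hours 1.14 ± 0.46 (limma adjusted p = 0.0969). P2ry1, a Gq-coupled receptor for adenosine diphosphate, differed by -0.35 to 0.53 over the 4 times and was not called.

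Adenosine receptors showed no call in any comparison by limma, nor an unadjusted p under 0.05. Adora2a, which is Gs-coupled, had signals of 107.4, 175 and 216.9 (lowest, median and highest) on the controls and 125.7, 156.1 and 127.3 at 12 hours, and its F-test adjusted p in limma was 0.522. Adora2b, also Gs-coupled, had 269.4, 173.9 and 228.5 at 12 hours on M91466_at beside control signals of 61.5 to 228.9, with a log2 difference of 0.72 ± 0.38 (limma adjusted p = 0.216). Both overlapped the controls. The Gi-coupled Adora1 differed from control by -0.66 to 0.34. The 3 probe sets of Adora3, another Gi-coupled receptor, differed among themselves at 3 days, with 0.79 on X59249_s_at (limma adjusted p = 0.999), 0.03 and -0.01.

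No somatostatin or vasopressin receptor was called in any comparison, and none had an unadjusted p under 0.05 in limma. Sstr4, a Gi-coupled somatostatin receptor, was between 166.3 and 303.1 on all arrays, and its differences from control were -0.29 to 0.15 (limma F-test adjusted p = 0.496). Sstr2 passed 43.05 on 2 arrays. Avpr1b, the Gq-coupled vasopressin receptor known from the pituitary, had 340.8 to 556.0 on AF064541_s_at, with a difference of -0.30 ± 0.17 at 1 day (limma adjusted p = 0.529). Its second probe set, U27322_at, had 17.1 to 84.8 and a difference of 0.55 at 3 days (limma adjusted p = 0.999). Avpr2, the Gs-coupled receptor of the kidney, differed by -0.31 to -0.04 on Z11932cds_at.

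Genes that make the ligands of these receptors, and those that carry their signals, were looked at beside them. Of 38 ligand, enzyme and transporter genes listed, 20 were measured by 32 probe sets, and 25 probe sets were tested. None was called against control at any time, and an unadjusted limma p was under 0.05 for 7, 6, 1 and 7 of them at 12 hours, 1 day, 3 days and 5 days, against 29.4%, 11.8%, 4.52% and 9.05% of all probe sets. The largest difference in size from control was of Sst at 12 hours and 5 days and of Gal at 1 day and 3 days. Between 5 days and 12 hours, 6 of the 25 were called, against 16.2% of all probe sets. With cluster as a block none of these 6 was called, nor was any other probe set. The higher ones were Penk, the enkephalin precursor, on S49491_s_at (log2 difference 3.75, limma adjusted p = 0.0168), and Maob, which degrades monoamines (1.88, limma adjusted p = 0.0286). The lower ones were Gal, both probe sets of the somatostatin gene Sst (-3.53 and -5.72, limma adjusted p = 0.0416 and 0.0453) and Th, the rate-limiting enzyme of catecholamine synthesis (-1.39, limma adjusted p = 0.0465). The second tested Penk probe set, rc_AI009300_at, differed by -0.07.

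Of 60 listed coupling genes (G protein subunits, receptor kinases, arrestins, phospholipases and the like), 9 were measured and 18 of their 20 probe sets tested. Between 5 days and 12 hours the G protein subunit Gnao1 was higher on M17526_at (1.41, limma adjusted p = 0.0475) and the receptor kinase Grk2 was lower (-1.29, limma adjusted p = 0.0453), with no call against control. Among 32 other G protein-coupled receptor genes, such as muscarinic, glutamate and chemokine receptors, 37 probe sets were tested and limma called none against control, with an unadjusted p under 0.05 for 10 at 12 hours, against 29.4% of all probe sets. Between 5 days and 12 hours Gabbr1 on AB016160_g_at (1.68, limma adjusted p = 0.032) and Cxcr4 on U90610_g_at (1.25, limma adjusted p = 0.0466) were higher. Calcrl was lower (-1.46, limma adjusted p = 0.0422). Over all probe sets 16.2% were called. The other tested Gabbr1 probe sets were not called, at 0.95, 0.02, -0.46 and -0.42, nor was Cxcr4 U90610_at, at 0.70 (limma adjusted p = 0.111). With cluster as a block, limma called none of all probe sets in this comparison. At 12 hours the median difference of those 37 was -0.30, with 28 of 37 (75.7%) below control, near the share among the monoamine and peptide receptors. That of the 18 coupling probe sets was 0.14.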

How the data were processed

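RNA of 18 samples of rat astrocytes was measured on an Affymetrix-type neurobiology array. The deposited table holds 1 linear intensity for each of 1322 probe sets and each array, and the authors' software is not given in the sources used here. Trimming 2% at each end gave array means between 502.067 and 502.632, so scaling between arrays had been done and was not repeated. From the deposited signals log2 was taken here after values below the 10th percentile of the table (10.9) were set to it. Leaving out 59 array control probe sets gave 1263, and the 1039 above the 30th percentile (43.05) on at least 3 arrays were tested.

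The 5 groups were fitted together with lmFit and eBayes of limma 3.58.1 under R 4.3.3 (13 residual degrees of freedom, median residual SD 0.492). Tests were two-sided, with Benjamini-Hochberg adjustment within each comparison over all 1039 probe sets and a threshold of 0.05. Each probe set was kept apart. Differences near the floor are understated. Of 48 receptor genes, 46 matched RefSeq by gene identifier and 0 symbols changed. The number of arrays limits the precision.

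Receptors were named where called, with the other probe sets of their gene, where among the 3 smallest p-values in each direction against control, or where they had the smallest F-test p of their family. Those that did not pass the filter were also named. The members, lists and tests were chosen with earlier results of these data known. Alternatives changed the floor, filter, scaling, variance model, blocks and arrays used, and some were added after seeing the data. On simulated data for 12 hours against control with 1039 probe sets, 58.2%, 89.6% and 92.4% of those changed by log2 1, 2 and 3 were recovered, and 0.358% of unchanged ones were called. That simulation held no array clusters, and whether these percentages hold for the deposited arrays was not tested.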

Additional observations from a re-analysis of the deposited data

Results flagged for a closer look

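In 25 of the 69 receptor probe sets, the 6 controls were tested for an array standing apart, by the gap to its neighbour over the whole range (limit 0.625). Of these 25, 2 were past the limit, where chance gives about 1 in 20. The other receptor probe sets were not examined in this way. Adora2a had a signal of 107.4 on control 4, below the other controls (ratio 0.657), and Galr2 had 105.6 on control 5, above the others (ratio 0.753).

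For 4 receptors the difference from control at 5 days differed from that at 12 hours by the limma test of 5 days against 12 hours itself. The 5-day minus 12-hour log2 difference was -1.955 for Adra1b, 3.396 for Adrb1, 1.146 for Drd1 and -1.677 for Galr2. All 12-hour arrays are in cluster 1 and all 5-day arrays in cluster 2, so time and cluster cannot be told apart from these arrays alone. With cluster as a block, which draws on the other groups, the values were -0.79 for Adra1b, 1.18 for Adrb1, 1.21 for Drd1 and -1.03 for Galr2, and none was called.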

How the results depend on the processing

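Counts of called receptor probe sets are given, in limma. At 12 hours (1 called) there were 0 with log2(signal + 32), a 50th-percentile filter, quantile, median or cyclic loess scaling, the replicate block, the cluster block, or within cluster 1. There were 2 with no filter (2.14% of all probe sets were called) and 10 without controls 1 and 2, where 321 of all probe sets were called (30.9%). At 1 day (1 called) there were 0 with a 20th-percentile floor, log2(signal + 32), the 50th-percentile filter, trend and robust options, or the replicate block. There were 2 with the cluster block, within cluster 2 or without controls 1 and 2. The share of all probe sets called at 1 day was 0.289% in the main fit and 5.58% without controls 1 and 2. It was higher still within cluster 2, and between these values with the cluster block. At 5 days (0 called) the replicate block called 3 (5.97% of all probe sets were). Between 5 days and 12 hours (4 called) the cluster block called 0, with Drd1 still at 1.21. Galr2 lost its call there with no filter (adjusted p = 0.0572), quantile scaling (0.0548) and the replicate block (0.0661), under which Htr2a was called. The F-test (1 called) gave 0 with log2(signal + 32), the 50th-percentile filter, quantile, median or loess scaling, or trend and robust options. It gave 2 with the replicate block (4.33% of all) and 6 without controls 1 and 2 (20.9% of all). With the cluster block it gave 1, but this was Tacr3, and Drd1 lost its call (2.5% of all). Drd1 and Tacr3 were not tested under the 50th-percentile filter. Leaving out each array in turn gave 0 to 6 at 12 hours (6 without control 1, where 19.6% of all probe sets were called) and 0 to 1 at 1 day. Between 5 days and 12 hours it gave 0 to 5, with 0 without 12-hour array 2 (0.0962% of all) and 5 without 3-day array 3 (20.5%). For the F-test it gave 0 to 3, with 3 without control 1 (10.8%). At 3 days and for the mean of the times every alternative gave 0. No called difference reversed its sign. The causes were not tested. The labels do not say whether array numbers pair the samples. Same-numbered 1-day and 3-day arrays deviated together (correlations 0.383, 0.43 and 0.682), and those of control with either ran opposite (-0.599 to -0.244). Same-numbered 1-day and 3-day arrays share a cluster, and the controls of the same number lie in the other cluster. These correlations therefore cannot tell pairing from cluster. The remaining combinations of groups had at least 1 pair under 0.1, so pairing was not assumed. Clusters were made from these values, so blocked p-values may be too small.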
